A study of Homo sapiens with 12 samples.

Results

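Ligands of the vascular endothelial growth factor (VEGF) and platelet-derived growth factor (PDGF) families, and 3 further secreted factors, were followed in MDA-MB-231 cells grown in Matrigel with and without Paclitaxel. They are VEGFA, VEGFB, VEGFC, PDGFA, PDGFB, PDGFC, PDGFD, FGF2, EGFL7 and CSF1. The members were taken by gene symbol, 10 of the 63568 Ensembl identifiers in the deposited count table, and each symbol matched 1 identifier. All 10 passed the filter on low counts, which left 25249 genes to test.

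MDA-MB-231 is an established human triple negative breast cancer line, and the cells used here carried a fluorescent nuclear label. Bulk RNA was sequenced from 12 cultures in 6 groups of 2. Untreated cultures were taken on day 2 (C1) and on day 4 (C2). By the sample labels, Paclitaxel was given on day 2 at 0.0005, 0.005, 0.05 or 0.5 µM, and those cultures were taken on day 4. The study's methods name a later day of dosing for its imaged cultures, so the length of exposure rests on the labels alone. All groups share the cell line, the Matrigel and the glass-bottom plates, and the study's methods call the pairs biological replicates. The cultures hold tumour cells of 1 line, without added endothelial cells, fibroblasts or macrophages. Bulk RNA cannot tell fewer cells of a kind from less RNA per cell.

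VEGF ligands bind the receptor tyrosine kinases FLT1, KDR and FLT4, with neuropilins (NRP1, NRP2) as coreceptors. VEGFA is the main driver of blood vessel growth and is known for its induction by low oxygen, while VEGFC acts mostly on lymphatic vessels. PDGF ligands form dimers that bind PDGFRA and PDGFRB, which are typical of fibroblasts and pericytes. PDGFC and PDGFD are secreted in a latent form and must be cleaved by proteases before they can bind. Breast tumour cells are known to secrete such factors towards neighbouring stromal and vascular cells. Paclitaxel binds microtubules and stops their normal turnover.

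The libraries held 38380629 to 79169121 counts, with a median of 65977095.5. The C1 replicates differed far more than any other pair. Their chi-square per degree of freedom was 254.34, against 7.07 to 42.54 in the other 5 groups. The pooled results of VEGFA and PDGFC are given with and without the C1 libraries. Those of most genes in the other lists are given only with C1 pooled in. Markers known to be high in this line were abundant, with VIM at 797 to 1366 CPM (counts per 1000000 counts, scaled by the trimmed mean of M values). Of 5 markers listed as low in it, ESR1, PGR and CDH1 stayed under 1 CPM in every library, while EPCAM had 4.37 to 6.77 CPM and ERBB2 26.6 to 52.4 CPM. The 8 endothelial markers measured summed to 61.0 to 98.0 CPM in untreated and 60.1 to 82.0 CPM in treated libraries, nearly all of it ESAM. Of the others CDH5, TEK, VWF, EMCN and CLDN5 stayed under 1 CPM in every library. TIE1 had 0.149 to 0.276 CPM in untreated and 0.375 to 1.07 CPM in treated libraries, and KDR 0.388 to 0.802 and 1.26 to 1.84 CPM. Genes under 1 CPM had a median log2 fold change of 0.43 between treated and untreated libraries, and those above 8 CPM had a median of -0.15.

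Per kilobase of exon, CSF1, the macrophage growth factor, was the most abundant ligand at 60.9 ± 15.0 RPKM (reads per kilobase of exon, scaled as CPM, mean ± SD, n = 12). PDGFC followed at 24.5 ± 4.30 RPKM, so the latent PDGFC stood above every VEGF ligand on this scale. VEGFC stood at 12.1 ± 1.50 RPKM, VEGFA at 11.3 ± 2.61 RPKM and VEGFB at 9.21 ± 1.83 RPKM, and over all 12 libraries these neighbours lay within their spread. By this length VEGFC stood above VEGFA in all 4 untreated libraries, at 37.3% to 40.8% of the summed RPKM of the VEGF ligands against 22.8% to 31.2%, and the order varied among the treated ones. EGFL7 had 7.84 ± 1.08 RPKM and PDGFD 4.19 ± 0.625 RPKM. PDGFA at 2.69 ± 0.280 RPKM and PDGFB at 2.35 ± 0.642 RPKM were also within each other's spread. FGF2, fibroblast growth factor 2, was near 0 at 0.0176 ± 0.0113 RPKM. The place of VEGFA depended on the length used, since the union of its annotated exons spans 14431 bases and its canonical transcript 3609. With canonical lengths, an alternative added after the data were seen, VEGFA moved up in the order to second at 45.3 RPKM over all 12 libraries. That place came mainly from the treated groups, since by this length VEGFA stood below PDGFC in C1 (29.3 against 39.2 RPKM) and in C2 (38.1 against 39.9 RPKM) and above it at every dose. In C2 the order rested on replicate 1, since VEGFA stood above PDGFC in replicate 2. Within the PDGF family, PDGFC made up 67.7% to 78.2% of the summed RPKM in each library.

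**Figure D1:**
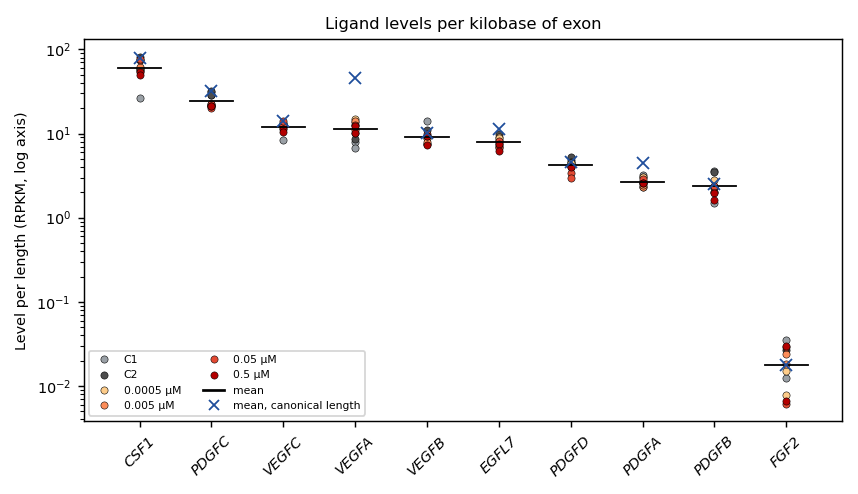
Level of each ligand per kilobase of exon (RPKM, log axis), 1 point per library coloured by condition, with the mean of 12 libraries as a bar and the mean by canonical transcript length as a cross. CSF1 and PDGFC lie highest, VEGFA moves from 11.3 to 45.3 RPKM with the canonical length, FGF2 lies at a mean of 0.0176 RPKM, and the 1 library with no FGF2 count cannot be drawn on this axis.

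Paclitaxel was first compared with the untreated cultures of both days, 8 libraries against 4. Among the 10 ligands, VEGFA was higher and PDGFC lower in treated libraries (edgeR quasi-likelihood test, adjusted p below 0.05), and the other 8 did not pass. This was read against a background of 24.4% of all tested genes called in that comparison, so 2 of 10 is near the share of all genes. The median log2 fold change of the 10 ligands was -0.09, beside -0.00 over all genes tested.

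VEGFA (ENSG00000112715) is a protein-coding gene at chr6:43737921-43754224 on the plus strand of GRCh37. Its level was 115 and 96.9 CPM in the C1 libraries and 126 and 149 CPM in C2. It was 216 and 184 CPM at 0.0005 µM, 199.7 and 204 CPM at 0.005 µM, 162 and 184 CPM at 0.05 µM, and 146 and 179.5 CPM at 0.5 µM. The groups overlapped, since replicate 1 at 0.5 µM, at 146 CPM, lay below C2 replicate 2 at 149 CPM, while 13.2% of all tested genes had no overlap. Treated libraries had 1.52-fold more VEGFA than untreated ones (log2 fold change 0.60, SE 0.13, adjusted p = 0.00275). Against the day 4 cultures alone, without C1, the log2 fold change was 0.43 (SE 0.14, adjusted p = 0.0485), and over 21 alternatives its adjusted p ranged from 8.23e-05 to 0.0485. With C2 alone as the control 3408 genes were called in all, and with both days 6155.

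VEGFA did not pass the test at any single dose against C2. Its log2 fold change was 0.54 at 0.0005 µM (SE 0.16, 95% interval 0.19 to 0.89, adjusted p = 0.113) and 0.56 at 0.005 µM (SE 0.16, 0.20 to 0.91, adjusted p = 0.0871). It was 0.33 at 0.05 µM (adjusted p = 0.242) and 0.24 at 0.5 µM (adjusted p = 0.395). Both lower doses passed when C1 was pooled with C2 as the control or when either C1 library was left out. They passed in 7 and 8 of 22 alternatives, over which the adjusted p ranged from 0.00463 to 0.443 and from 0.00485 to 0.533. The higher doses passed in 1 of 22 alternatives each, 0.05 µM with both untreated days as the control (adjusted p = 0.0222) and 0.5 µM with the replicate block and GC content and length offsets (adjusted p = 0.0444). Within the 8 treated libraries the VEGFA slope was -0.11 per 10-fold dose on the log2 scale (SE 0.04, unadjusted p = 0.0241, adjusted p = 0.193), which did not pass.

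VEGFB and VEGFC, ligands that bind FLT1 and FLT4 respectively, did not pass any test with all 12 libraries. VEGFB (chr11:64002056-64006736) ranged from 14.3 to 19.2 CPM in treated libraries and from 14.8 to 27.4 CPM in untreated ones, with a log2 fold change of -0.28 (95% interval -0.56 to 0.01). VEGFC (chr4:177604689-177714076) ranged from 27.4 to 36.6 CPM in treated and from 22.1 to 35.3 CPM in untreated libraries, with a log2 fold change of 0.04 (-0.20 to 0.29). The groups overlapped for both genes. Without C1 replicate 2, VEGFB and PDGFB also passed in treated against untreated libraries, making 4 ligands in place of 2.

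**Figure D2:**
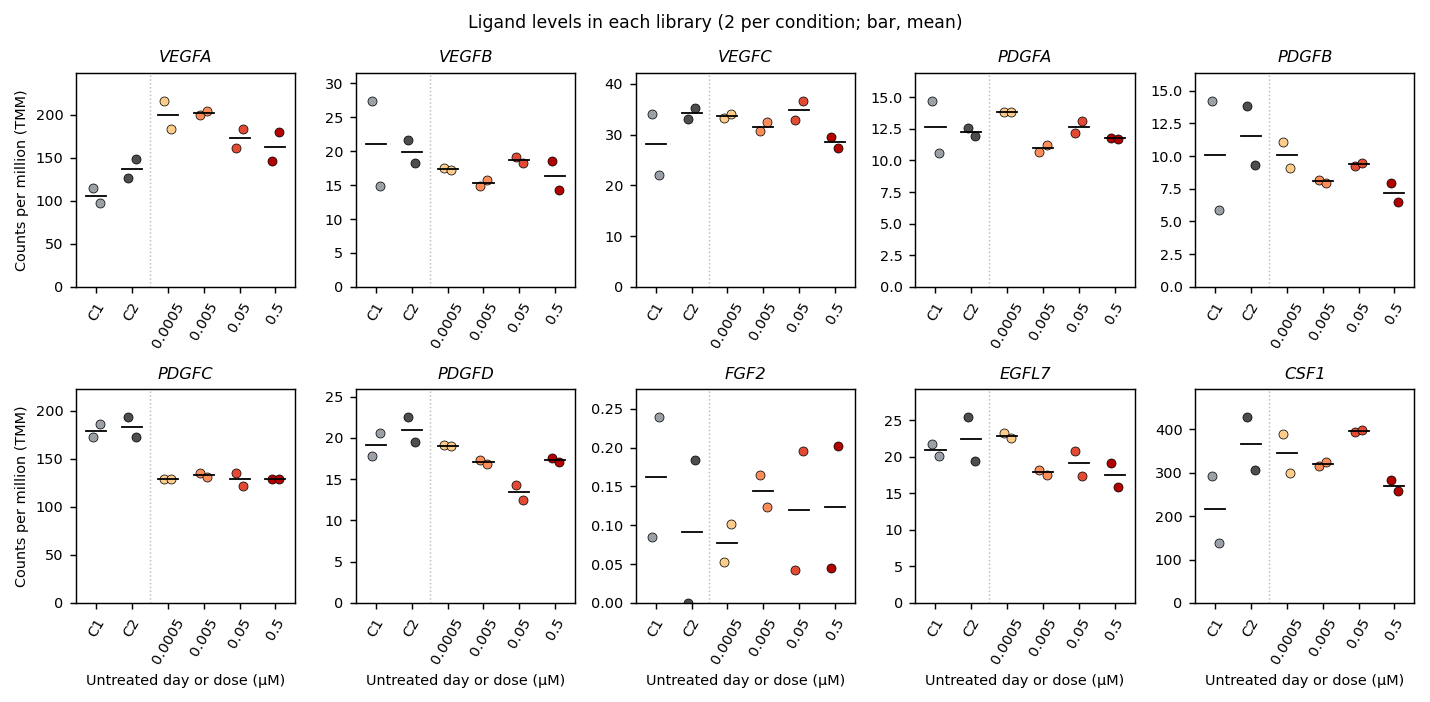
CPM of the 10 ligands (vertical axis, from 0) in each of the 12 libraries, by untreated day (C1, C2) or Paclitaxel dose, with the group mean as a bar. All 8 treated libraries of PDGFC lie below the 4 untreated ones, from 122 to 135 CPM against 172 to 193 CPM, and the C1 replicates of CSF1 lie at 293 and 138 CPM.

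PDGFC (ENSG00000145431) lies on the minus strand at chr4:157681606-157892951 (GRCh37) and was lower in every treated library. It stood at 172 and 186 CPM in C1 and at 193 and 172 CPM in C2. Both libraries at 0.0005 µM and both at 0.5 µM had 129 CPM, those at 0.005 µM had 135 and 131 CPM, and those at 0.05 µM had 135 and 122 CPM. The treated and untreated libraries did not overlap. PDGFC was the 1 ligand of 10 without overlap, where 13.2% of all tested genes had none. Treated libraries had 28.1% less PDGFC (-0.48 on the log2 scale, SE 0.08, adjusted p = 0.000486), and against C2 alone the value was again -0.48 (SE 0.09, adjusted p = 0.00279). The call was kept in all 21 alternatives tried.

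PDGFC had a similar value at every dose. Its log2 fold change against C2 was -0.50 at 0.0005 µM (SE 0.13, adjusted p = 0.0685) and -0.46 at 0.005 µM (SE 0.13, adjusted p = 0.0784), neither of which passed. It was -0.51 at 0.05 µM (SE 0.13, adjusted p = 0.0318) and -0.50 at 0.5 µM (SE 0.13, adjusted p = 0.0419), which both passed. The 4 doses share the C2 libraries and are not independent comparisons. The slope across doses was -0.01 per 10-fold dose (95% interval -0.08 to 0.07), so the data bound any trend to that range. The call at 0.05 µM was kept without either C1 library and lost without any 1 of the other 10, with values between -0.60 and -0.38 over all alternatives. The call at 0.5 µM was kept without either C1 library or without replicate 2 at 0.05 µM and lost without any 1 of the other 9, with values between -0.59 and -0.42. With no filter on low counts neither of these calls of PDGFC was kept.

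PDGFD (ENSG00000170962, minus strand, chr11:103777917-104035107 on GRCh37) encodes the other ligand that needs cleavage, and binds mainly PDGFRB. Its level was 17.8 and 20.6 CPM in C1, 22.5 and 19.5 CPM in C2, 19.1 and 19.0 CPM at 0.0005 µM, and 17.3 and 16.9 CPM at 0.005 µM. The lowest libraries were those at 0.05 µM, with 14.3 and 12.5 CPM, and at 0.5 µM they had 17.6 and 17.1 CPM. The treated and untreated libraries overlapped, since both libraries at 0.0005 µM lay above C1 replicate 1. PDGFD was 36.3% lower at 0.05 µM (-0.65 on the log2 scale, SE 0.14, adjusted p = 0.0166) and did not pass at 0.5 µM (-0.28, SE 0.14, adjusted p = 0.266). The call at 0.05 µM was lost without C2 replicate 1 or without either library of that dose, and the value stayed between -0.76 and -0.52 over the alternatives. Of PDGFD's exon bases, 4.5% overlap DDI1 on the opposite strand, and whether counting used strand is not given in the sources used here.

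A RefSeq promoter was given for 6 of the 10 ligands and not for VEGFA, PDGFB, PDGFC or CSF1. Among the ligands called lower, PDGFD has one, and its 250 bases before the start site at chr11:104164148-104164397 (minus strand, RefSeq, GRCh38.p14) are shown beside those of FGF2 at chr4:122826581-122826830 (plus strand), the ligand that was nearly silent. Capitals mark each match to a GC box, GGGCGG, on either strand.
PDGFD: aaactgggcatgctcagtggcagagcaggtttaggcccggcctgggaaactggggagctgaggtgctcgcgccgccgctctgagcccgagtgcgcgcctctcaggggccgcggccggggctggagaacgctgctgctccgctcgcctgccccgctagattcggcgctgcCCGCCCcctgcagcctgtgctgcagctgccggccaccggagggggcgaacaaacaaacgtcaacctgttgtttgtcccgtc
FGF2: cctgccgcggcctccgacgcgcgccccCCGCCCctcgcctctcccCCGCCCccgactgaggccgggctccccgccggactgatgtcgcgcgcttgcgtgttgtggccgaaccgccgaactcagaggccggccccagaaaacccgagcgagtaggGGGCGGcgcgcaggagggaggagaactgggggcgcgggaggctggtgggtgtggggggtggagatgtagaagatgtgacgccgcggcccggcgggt
PDGFD held 1 match and FGF2 held 3, and 42.6% of the 35116 promoters in the RefSeq set held at least 1. Neither held ACGTG, the core that hypoxia-inducible factors read, found in 18.5% of promoters, nor TATAAA (10.7%) or TGANTCA, the AP-1 site (6.6%), on either strand. The GC content of these stretches was 69.2% for PDGFD and 75.2% for FGF2, so both genes start in GC-rich sequence while their levels differ by a wide margin.

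At each dose against C2, the number of ligands called was compared with the number over all genes. No ligand passed at 0.0005 µM, where 2.34% of all genes did, or at 0.005 µM, where 3.28% did. The unadjusted p was below 0.05 for 2 ligands at each of these doses, VEGFA and PDGFC, and DESeq2 called both at both doses. At 0.05 µM, 2 of 10 ligands passed, PDGFC and PDGFD, beside 8.32% of all genes. At 0.5 µM, 1 of 10 passed, PDGFC, beside 6.32% of all genes. With 2 libraries a group, an exact permutation test of 1 gene cannot give a p below 0.333, so these calls rest on the spread that edgeR shares across genes.

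**Figure D3:**
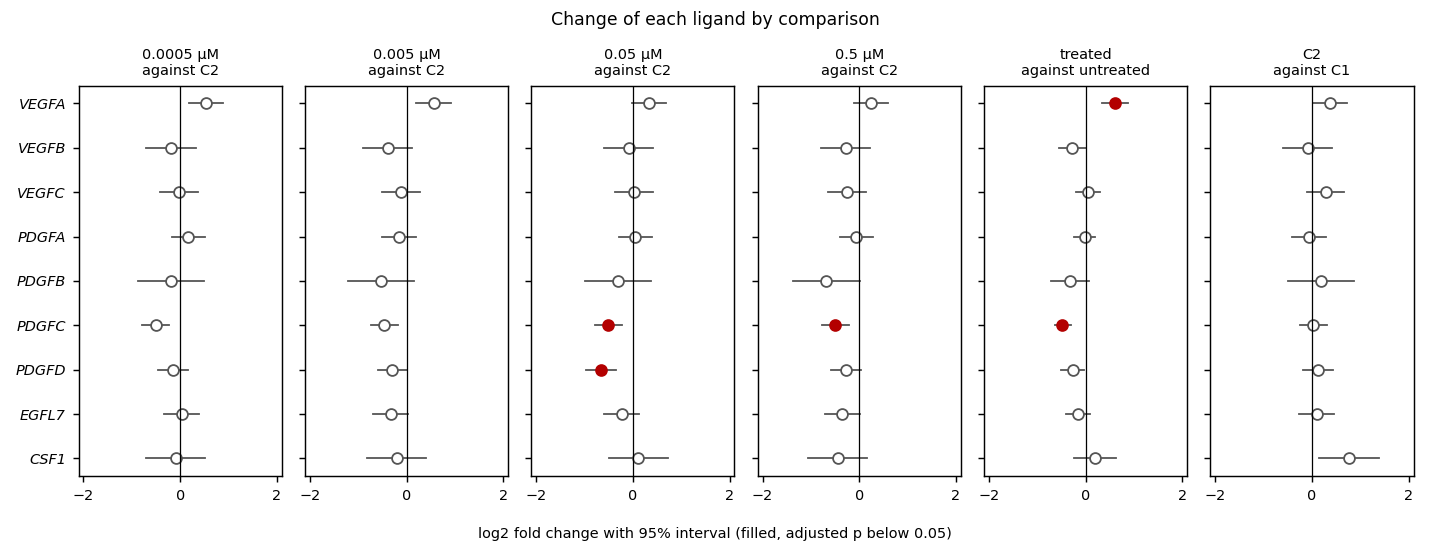
log2 fold change (horizontal axis) of 9 ligands with its 95% interval for the 4 doses against C2, all treated against all untreated libraries, and C2 against C1. Filled points have an adjusted p below 0.05, which holds for PDGFC at 0.05 and 0.5 µM, PDGFD at 0.05 µM, and VEGFA and PDGFC in the pooled comparison. FGF2 is left out because its interval spans several units.

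PDGFA and PDGFB are the classical PDGF chains. PDGFA was called in no comparison and under no alternative tried. PDGFA (chr7:536895-559933) varied little, from 10.6 to 14.7 CPM over all 12 libraries, and its log2 fold change between treated and untreated was -0.02 (95% interval -0.24 to 0.20). PDGFB (chr22:39619364-39640987) had 14.2 and 5.91 CPM in C1, 13.8 and 9.29 CPM in C2, and 7.94 and 6.46 CPM at 0.5 µM. Its log2 fold change at 0.5 µM was -0.68 (SE 0.32, adjusted p = 0.222), and it was called there without either C1 library or with no filter on low counts, 3 of 22 alternatives in all, with adjusted p-values from 0.00893 to 0.774.

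Of the 3 remaining factors, none was called in treated against untreated libraries or at any dose. CSF1 (chr1:110452864-110473614) had the widest range in CPM of the 10 ligands, at 293 and 138 CPM in C1, 428 and 306 CPM in C2, 389 and 300.2 CPM at 0.0005 µM, 315 and 324 CPM at 0.005 µM, 394 and 399.8 CPM at 0.05 µM, and 284 and 257 CPM at 0.5 µM. The treated libraries lay within the range of the untreated ones. EGFL7, a secreted protein known for its role in vessel formation, ranged from 15.8 to 23.2 CPM in treated and 19.4 to 25.4 CPM in untreated libraries, with a log2 fold change of -0.16 (95% interval -0.40 to 0.08).

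EGFL7 (chr9:139553308-139567130, GRCh37) hosts MIR126, which lies at chr9:139565054-139565138 on the same strand, in intron 8 of the canonical transcript, and overlaps an exon of none of its 7 annotated transcripts. The mature microRNAs are shown because they are made from the EGFL7 transcript, with the seed, bases 2 to 8, in capitals (RefSeq).
hsa-miR-126-5p: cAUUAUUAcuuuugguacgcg
hsa-miR-126-3p: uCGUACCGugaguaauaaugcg
The arms have different seeds. The MIR126 row held 0 to 3 counts per library and was 0 in 7 of 12 libraries. These libraries hold long RNA and do not measure mature microRNAs, so the EGFL7 level says nothing about theirs.

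FGF2 (chr4:123747837-123819391) had 0 to 15 counts per library, against 3 counts that a listed 0 would still allow. Both groups held libraries at 3 counts or fewer, so its difference was not detectable at this depth, and 13.0% of its exon bases are shared with other genes, among them NUDT6 on the opposite strand.

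The change over time in untreated cultures was tested between days 4 and 2. None of the 10 ligands passed, with 0.325% of all genes called. The unadjusted p was below 0.05 for 2 of them, and DESeq2 called 0. CSF1 was higher in both C2 libraries than in both C1 libraries, with a log2 fold change of 0.77 (SE 0.28, unadjusted p = 0.0187, adjusted p = 0.412). That value rested on the C1 replicates, at 1.42 (adjusted p = 0.00136) without replicate 1, when VEGFC and PDGFB also passed, and 0.36 (adjusted p = 0.317) without replicate 2. CSF1 passed in 4 of 21 alternatives, the other 3 being no filter and the offsets for GC content and length with and without the replicate block. VEGFA had a log2 fold change of 0.38 (SE 0.16, adjusted p = 0.478). PDGFC differed by 0.03 (95% interval -0.25 to 0.31).

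Dose was tested across the 8 treated libraries. No ligand had a slope that passed, with 3.15% of genes called, while the unadjusted p was below 0.05 for 3 (VEGFA, PDGFB and EGFL7, at -0.11, -0.12 and -0.11 per 10-fold dose) and DESeq2 called 0. A test of any difference among the 4 doses, added after the data were seen, called no ligand by edgeR and 0.198% of genes. PDGFD alone had an unadjusted p below 0.05 there (adjusted p = 0.463).

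The opposite shifts of VEGFA and PDGFC can be read within each library, without scaling between libraries. The ratio of VEGFA to PDGFC counts was 0.666 and 0.522 in C1 and 0.653 and 0.866 in C2. It was 1.67 and 1.42 at 0.0005 µM, 1.48 and 1.56 at 0.005 µM, 1.20 and 1.51 at 0.05 µM, and 1.13 and 1.39 at 0.5 µM. The median was 0.660 in the 4 untreated and 1.45 in the 8 treated libraries, and the groups did not overlap. The pair was chosen after its values were seen, so this is a description with no test. VEGFA likewise made up 22.8% to 31.2% of the summed RPKM of the VEGF ligands in untreated libraries and 32.8% to 41.8% in treated ones.

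**Figure D4:**
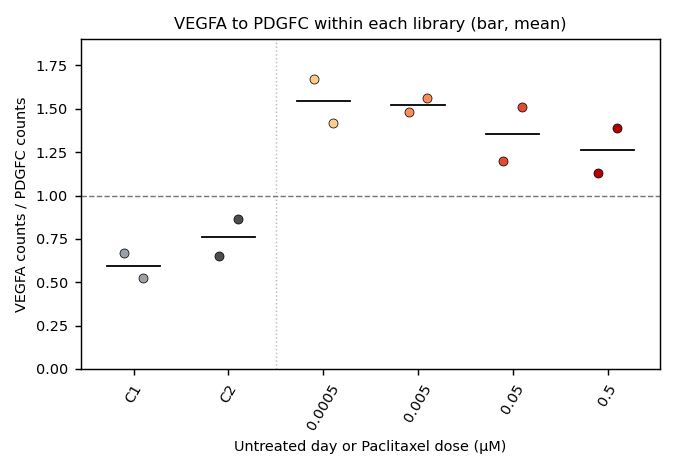
Ratio of VEGFA counts to PDGFC counts in each of the 12 libraries (vertical axis), by untreated day or Paclitaxel dose, with the group mean as a bar and a dashed line at 1. Untreated libraries lie between 0.522 and 0.866 and treated ones between 1.13 and 1.67.

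The receptors of these ligands were then examined, since the same cells could respond to what they secrete. Of 12 receptors and coreceptors, 11 passed the filter. In treated against untreated libraries 4 rose and 0 fell, all 4 from low levels. Over all genes tested 13.1% rose and 11.3% fell in this comparison, and of genes under 1 CPM 22.2% rose and 1.01% fell. FLT1, which binds VEGFA and VEGFB, had 1 to 4 counts in untreated and 16 to 29 in treated libraries, a ratio of pooled counts over pooled scaled library sizes of 8.05 (exact 95% interval 4.15 to 17.9, counting error only), and its fitted log2 fold change was 2.91 (SE 0.40, adjusted p = 9.77e-05), or 3.58 against C2 alone. KDR, the main VEGFA signalling receptor, rose from a range of 0.388 to 0.802 CPM to one of 1.26 to 1.84 CPM (log2 fold change 1.26, SE 0.19, adjusted p = 0.000218). PDGFRA, the receptor of PDGFC, rose from a range of 0.115 to 0.388 CPM to one of 0.602 to 2.16 CPM (2.73, SE 0.46, adjusted p = 0.000579), highest in the libraries at 0.05 µM. CSF1R, the CSF1 receptor, rose by 0.99 (SE 0.24, adjusted p = 0.0073), though its groups overlapped. FLT1 reached the level of the filter on low counts, 0.152 CPM in 2 libraries, in 0 of 4 untreated and 8 of 8 treated libraries, and PDGFRA in 1 and 8. Both were therefore tested only because of their treated libraries, had to differ, and add nothing to the count of 4.

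The calls of KDR and CSF1R were kept in all 21 alternatives. All 4 receptors stayed at or under 2.16 CPM, and genes under 1 CPM as a class moved in the same direction. Of the 6 macrophage markers tested 4 also rose and of the 6 endothelial markers tested 3 rose, and these lists themselves hold CSF1R and KDR. Over all genes tested 13.1% rose, and of those under 1 CPM 22.2% did. CD14 reached 1.62 CPM in treated and 0.548 CPM in untreated libraries, and ITGAM, a myeloid integrin, had 0 to 0.0920 CPM in untreated and 0.718 to 2.34 CPM in treated ones. CD68 stayed at or under 0.225 CPM in untreated and 0.170 CPM in treated libraries and did not pass. ITGAM and PTPRC, 2 of the 4 macrophage markers that rose, and TEK among the endothelial ones were likewise tested only because of their treated libraries, and add nothing to these counts. The 7 macrophage markers summed to 9.33 to 15.0 CPM in untreated and 13.2 to 21.0 CPM in treated libraries, most of it ADGRE1 at 7.49 to 13.8 and 7.46 to 18.2 CPM. The 8 markers of fibroblasts and pericytes summed to 13.7 to 21.3 and 19.4 to 26.7 CPM. Of the 7 of these tested 2 rose, PDGFRA among them. COL3A1 had 0.129 to 0.344 CPM in untreated and 0.374 to 1.52 CPM in treated libraries. The part of these low-level transcripts in the receptor values was not tested. The abundant receptors did not pass, with NRP1 at 177 to 319 CPM, FGFR1 at 46.8 to 83.7 CPM, FGFR4 at 9.69 to 20.8 CPM, FGFR3 at 4.91 to 7.81 CPM, PDGFRB at 3.61 to 9.15 CPM and NRP2 at 3.28 to 7.04 CPM over all libraries. FLT4, the VEGFC receptor, stayed at or under 0.209 CPM and did not pass, and FGFR2, at 0 to 1 counts, was not tested.

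**Figure D5:**
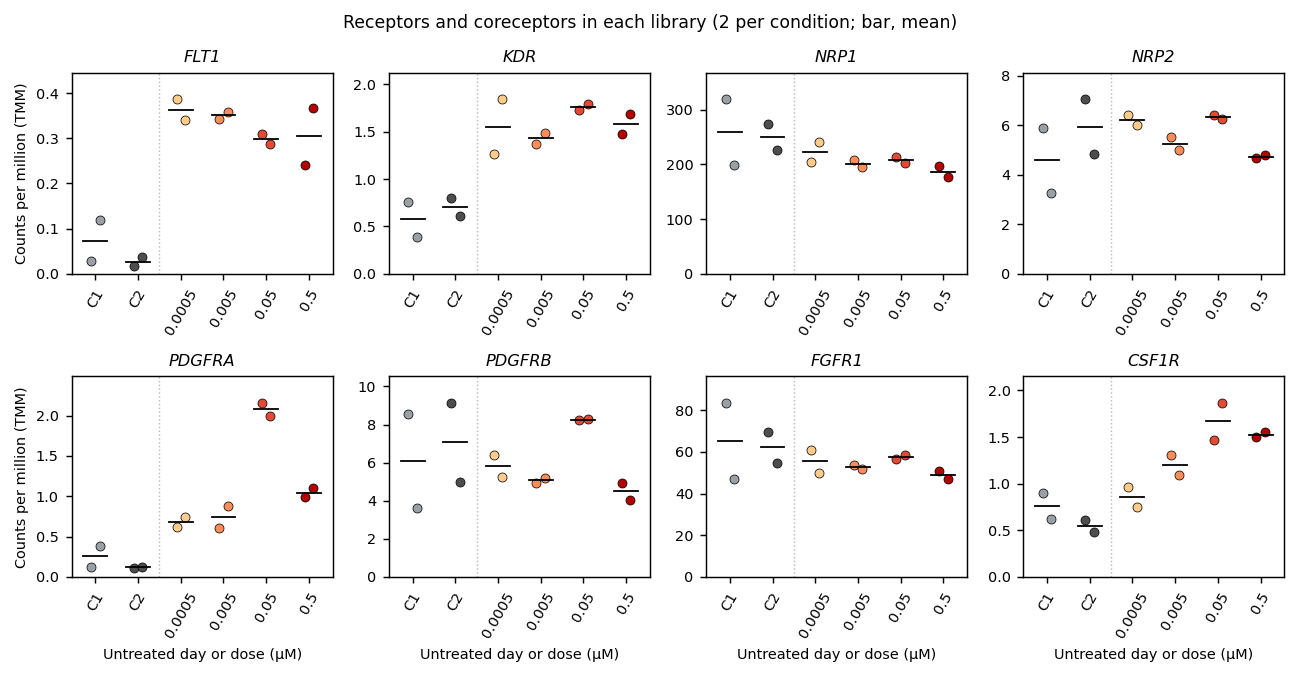
CPM (vertical axis, from 0, scaled per panel) of 8 receptors and coreceptors in each of the 12 libraries, with group means as bars. FLT1, KDR and PDGFRA lie higher in all treated libraries but under 2.5 CPM, while NRP1 and FGFR1 are far more abundant and overlap between groups.

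Among 8 other ligands of the same receptors, 6 rose and 1 fell in treated libraries, beside 13.1% and 11.3% of all genes and 22.2% and 1.01% of those under 1 CPM. The 1 that fell, FGF5, was also the most abundant of the called ones, at 102 to 134 CPM in untreated and 78.3 to 86.9 CPM in treated libraries (-0.45 on the log2 scale, SE 0.09, adjusted p = 0.00165). FGF18 rose by 1.56 (SE 0.21, adjusted p = 7.74e-05) and IL34, an alternative CSF1R ligand, by 1.61 (SE 0.32, adjusted p = 0.00193), both from under 0.5 CPM. Against C2 alone the IL34 value was 2.46, and its C1 libraries lay above those of C2. Of the 6 that rose, FGF18, IL34, VEGFD, FGF7 and FGF9 stayed at or under 1.43 CPM in every library, and FGF1 reached 4.18 CPM. IL34 and FGF9 too passed the filter only through their treated libraries. Their calls are therefore no support and add nothing to the count of 6. The call of FGF1 (0.44, adjusted p = 0.0433) was kept in 8 of 21 alternatives, with adjusted p-values up to 0.413. PGF, placental growth factor, stayed at 49.9 to 95.2 CPM and did not pass.

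Of 12 other angiogenic factors tested, 3 rose and 3 fell, or 25.0% each way beside 13.1% and 11.3% of all genes. Of genes above 8 CPM 3.92% rose and 21.1% fell, so the share that fell is near that of abundant genes. ADM, adrenomedullin, rose by 0.48 (SE 0.13, adjusted p = 0.012), MDK, midkine, by 0.54 (SE 0.13, adjusted p = 0.00592) and ANGPT2 by 0.73 from under 0.5 CPM. CCN1, a matrix protein that promotes vessel growth, had 1736 to 3722 CPM in untreated and 1113 to 1699.9 CPM in treated libraries (-0.78, SE 0.18, adjusted p = 0.00492). EDN1, endothelin 1, and PTN, pleiotrophin, fell by 0.48 and 0.67 on the log2 scale. Of the 9 inhibitors of angiogenesis, TIMP3 (-0.92) and VASH1 (-0.60) fell and none rose. Among 13 proteases and matrix partners, SDC4 rose (0.71), ADAMTS3, a protease that processes VEGFC through its cofactor CCBE1, fell (-0.34), and GPC1 fell (-0.64). The call of ADAMTS3 (adjusted p = 0.0468) was kept in 4 of 21 alternatives, with adjusted p-values up to 0.327. Those of ANGPT2 and SDC4 were kept in 14 and 16 of 21, with adjusted p-values up to 0.24 and 0.369. SDC4 had a mean of 175 CPM in C1 and 303 CPM in C2. Its mean was 571, 383, 333 and 280.2 CPM from the lowest to the highest dose. Across dose, the slope of CXCL8, interleukin 8, was -0.49 per 10-fold dose (SE 0.06, adjusted p = 0.000396) and that of ANGPTL4 was -0.27 (SE 0.04, adjusted p = 0.00105). ANGPTL4 also fell at 0.05 µM (-0.63) and 0.5 µM (-0.83) against C2. The slopes of SDC4 (-0.33), SEMA3A (-0.20), SPARC (-0.20), ADAM17 (-0.18) and EDN1 (-0.15) passed too, all below 0, where 2.11% of all genes had such a slope, and ADAM17 fell at 0.05 µM (-0.53). Of 16 alternatives, those of SEMA3A, SPARC, ADAM17 and EDN1 were kept in 13, 11, 11 and 10, and of 22 alternatives at 0.05 µM the calls of ANGPTL4 and ADAM17 in 12 and 15.

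The hypoxia list was examined because VEGFA is a known target of hypoxia-inducible factors. In treated against untreated libraries 0 of its 15 genes rose and 1, HIF1A, fell (-0.37, SE 0.10, adjusted p = 0.0126). Of all genes 13.1% rose and 11.3% fell, and of those above 8 CPM 3.92% and 21.1%. An unadjusted p below 0.05 was found for 3 of the 15. Whether these genes bear on the level of VEGFA was not tested. At 0.0005 µM against C2, 11 of 15 were higher, with a median of 0.19 on the log2 scale, and LOX, a collagen crosslinking enzyme, rose (0.65, adjusted p = 0.02), where 1.87% of all genes rose. Of all 25249 genes 12339 were higher, and of the 11193 above 8 CPM 4898 were. At 0.5 µM all 15 were lower, with a median of -0.35, and 2 fell, EGLN1 (-0.53, adjusted p = 0.0486) and CA12 (-0.60, adjusted p = 0.0498), where 1.96% of all genes fell. Of the 11193 genes above 8 CPM 7206 were lower and 3.50% fell, and all 12 downstream signalling genes were lower. The calls of EGLN1 and CA12 were kept in 11 and 12 of 22 alternatives, with adjusted p-values up to 0.402 and 0.352. Between days 2 and 4 of untreated culture 3 of 15 rose, CA9 by 1.45, LOX by 1.03 and NDRG1 by 0.91 on the log2 scale, beside 0.321% of all genes. The calls of CA9 and LOX were kept in 19 of 21 alternatives and that of NDRG1 in 7. Across dose all 15 slopes were below 0 and 6 passed (EGLN3, CA9, CA12, NDRG1, P4HA1 and LOX), with LOX at -0.34 and NDRG1 at -0.31 per 10-fold dose, beside 2.11% of all genes with a slope called below 0. Of the 11193 genes above 8 CPM, 6966 had a slope below 0 and 3.38% had one called below 0. The slope of EGLN3 was kept in 8 of 16 alternatives and that of P4HA1 in 12. The median slope of the 15 was -0.14, beside 0.01 over all genes tested and -0.02 over those above 8 CPM. Among the downstream signalling genes, AKT1 fell in treated libraries (-0.40) and none rose.

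The genes whose pattern over the 12 libraries was most like that of each called ligand were found among 11009 named genes at 5 CPM or more, as a description with no test. For VEGFA they were PRKAB2, a subunit of AMP-activated protein kinase (Pearson r = 0.967), ICOSLG (0.961) and DNAH5 (0.951). For PDGFC they were SLC36A4 (0.974), SH3TC2 (0.973) and FHL1 (0.973), and for PDGFD they were ARSK (0.964) and TLR4 (0.950). The 12 points share libraries and depth, and 8 of them share the drug.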

How the data were processed

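Raw counts per gene were deposited by the authors for 12 libraries, in 1 table of 63568 Ensembl identifiers and in 12 single files that hold identical values. Per the labels and the methods of the study, reads were trimmed with Trimmomatic 0.39, checked with FastQC 0.11.9, aligned to GRCh37 (hg19) with STAR 2.7.5, and unique exonic reads were counted with Rsubread. The strand setting and annotation release are not given in the sources used here. Reads of overlapping genes on opposite strands may therefore be mixed.

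Groups were taken from the sample labels, with 2 libraries in each. edgeR 4.0.16 on R 4.3.3 was fitted to the counts with filterByExpr, trimmed mean of M values scaling and the robust quasi-likelihood test. A 6-group model gave each dose against C2 and C2 against C1. Separate fits gave treated against untreated and the slope on log10 dose. Values called had a Benjamini-Hochberg adjusted p below 0.05 over all genes. Standard errors are the log2 fold change over the root of its F statistic, and intervals are 95%. RPKM used GENCODE exon lengths on GRCh37. The tests were tried on simulated data. DESeq2 1.42.0, RLE scaling, other filters, a replicate block, GC content and length offsets and leaving out each library were alternatives. The 10 members and all gene lists were chosen with earlier results of these data known. Genes from the other lists, cell type markers apart, are named if they were called or are receptors, and the 3 most alike genes were found for each called member. Results for 2 genes that these rules name are not reported here. The replicates are stated to be biological, but p-values measure only the spread between these samples, and count intervals cover counting error only.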

Additional observations from a re-analysis of the deposited data

Results flagged for a closer look

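In each ligand, the 4 untreated and the 8 treated libraries were searched for 1 library far from the rest, by the gap to its neighbour over the range of the set (Dixon's test). Of 20 sets, 2 held such a library, and chance alone gives about 1 in 20. VEGFC stood at 22.1 CPM in C1 replicate 2, where the other untreated libraries lay between 33.1 and 35.3 CPM. PDGFC stood at 122 CPM in replicate 2 at 0.05 µM, where the other treated libraries lay between 129 and 135 CPM. No explanation was tested for either.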

How the results depend on the processing

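The calls of VEGFA and PDGFC in treated against untreated libraries were kept under every alternative tried, while the calls at single doses depended on the setting. Against 0 ligands called at 0.0005 µM, 2 were called with GC content and length offsets, with the replicate block and those offsets together, by DESeq2, with only the 4 samples of the 2 groups, and with both untreated days as the control. Against 0 at 0.005 µM, the same 5 settings called 2, 1, 2, 2 and 2, and no filter called 1. At 0.05 µM no filter called 1 in place of 2, at 0.5 µM it called PDGFB in place of PDGFC, and at 0.5 µM the replicate block with offsets called 2 in place of 1. For C2 against C1, no filter, the offsets, and the block with offsets each called 1, CSF1, in place of 0. The cause was not tested.

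Leaving out 1 library gave 0 to 2 ligands at 0.0005 µM, 0 to 3 at 0.005 µM, 0 to 2 at 0.05 µM, 0 to 2 at 0.5 µM, 0 to 3 for C2 against C1, 2 to 4 for treated against untreated, and 0 for the slope and for any difference among doses. A group left with 1 library was assumed to vary like the others. The calls over all genes moved too. They went from 592 at 0.0005 µM to 2472 and 2552 without C1 replicate 1 or 2, and from 82 between C2 and C1 to 2682 and 1884. Without C2 replicate 1, in the control that the 4 doses share, they went from 592, 827, 2100 and 1596 to 144, 85, 321 and 129. The PDGFC difference between C2 and C1 ranged from -0.06 to 0.11 on leaving out 1 library, below 0 without C1 replicate 1 or C2 replicate 1, and its slope turned to 0.01 with the offsets, alone or with the block, all near 0.

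Replicate numbers pair no samples by the labels. Of 15 pairs of groups, 8 had deviations correlated above 0.1 and 5 below -0.1 (r from -0.60 to 0.70). With the replicate block alone the number of ligands called changed in no comparison, at 0, 0, 2, 1, 0, 2 and 0, and the genes called for the slope went from 789 to 421. Another scaling (RLE) moved the median of all genes to -0.02 in treated against untreated.

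Depth leaves FGF2 unmeasured, and 2 libraries a group leave wide intervals, widest for FGF2, PDGFB and CSF1.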
